A study of Drosophila melanogaster with 12 samples.

Results

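Translation initiation factor genes of Drosophila melanogaster were followed in cells and brains treated to lower Atx2, the gene for the RNA-binding protein Ataxin-2. The 44 genes were chosen by name, as every gene whose FlyBase symbol starts with eIF and a digit, out of 17737 gene identifiers in the deposited count tables. The rule uses names and no measured value, and the family was picked with earlier results of these data known. Ataxin-2 is known to act on translation, and the values bear on whether the initiation factors move with the cytoplasmic ribosomal protein genes, of which the tables hold 87.

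Poly(A) RNA was sequenced from 12 libraries in 4 groups of 3. S2 cells are a cultured line with properties of blood cells (hemocytes). One S2 group received double-stranded RNA (dsRNA) directed at Atx2, and the label of its control names no treatment. The larval samples were lysates of whole brain at the 3rd instar. In one brain group elav gal4, a driver active in neurons, turned on a short hairpin RNA (shRNA) against Atx2, and the label of the other again names no treatment. A whole brain also holds glia and other cells, and whether the driver was active in them was not measured. Because no control dsRNA is named, lowering Atx2 and receiving dsRNA cannot be told apart in S2 cells, and the genotype of the control brains is not given in the sources used here. The labels do not say that replicates were separate cultures or animals, so each p-value reflects only how far these samples vary, which may be technical. In these bulk samples fewer cells of a type and less RNA per cell cannot be told apart.

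Initiation on a capped mRNA starts when the cap-binding protein eIF4E, the scaffold eIF4G and the helicase eIF4A load onto the transcript. A small ribosomal subunit that carries eIF1, eIF1A, eIF3, eIF5 and the initiator tRNA with eIF2 and GTP then scans to the start codon. eIF2B recharges eIF2 with GTP after each round, eIF5B joins the large subunit, and eIF6 keeps free large subunits from joining too early. eIF3 is the largest of these complexes, and it forms the platform that links the small subunit to the cap complex.

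The libraries held 14944637 to 20400465 counts in S2 cells with dsRNA and 25994555 to 29020252 in S2 control cells. They held 26442727 to 28086056 in shRNA brains and 29754856 to 31579528 in control brains. Levels are given as CPM (each count scaled to the size of its library), after scaling libraries within S2 cells or within brain by the trimmed mean of M-values (TMM). Atx2 itself was at 149, 55.3 and 166 CPM in the dsRNA libraries and at 242, 218 and 226 CPM in S2 control libraries. The groups did not overlap, but the log2 fold change of -0.89 ± 0.35 (SE) did not pass the threshold (adjusted p = 0.0613). In brain Atx2 was at 92.4, 97.8 and 104.1 CPM with shRNA and at 187, 195 and 197 CPM in control (log2 -0.97 ± 0.08, adjusted p = 0.00271). A difference was called where the p of the quasi-likelihood F test of edgeR, adjusted by the Benjamini-Hochberg method over all genes tested, was under 0.05. The summed level of 5 hemocyte markers was 213 to 277 CPM with dsRNA and 1280 to 2000 CPM in S2 control cells, with no marker at 0 in either group, and all 4 that could be tested were lower. In brain the summed level of 4 neuroblast (neural stem cell) markers was 132 to 187 CPM with shRNA and 356 to 389 CPM in control, with 3 of 4 lower. That of 3 glial markers was 582 to 816 CPM with shRNA and 484 to 522 CPM in control, with all 3 higher. The 5 neuron markers summed to 1580 to 1799 CPM with shRNA and to 1674 to 2136 CPM in control. Among them elav (log2 -0.72) and fne (-0.83) were lower and Syt1 (0.44) was higher. The 5 hemocyte markers summed to 285 to 436 CPM with shRNA and to 121 to 205 CPM in control brains, with 2 higher and 0 lower. In the shRNA brain library 1 the 3 gut markers reached 2007 CPM and the 3 fat body markers 2787 CPM, and in control brain library 3 the 3 salivary gland markers reached 1610 CPM. The other brain libraries had at most 3.15 CPM of the gut and 18.9 CPM of the salivary gland markers. Fat body markers also summed to 885 and 74.2 CPM in shRNA libraries 2 and 3, and to 304, 22.1 and 135 CPM in control. The 3 muscle markers summed to 276, 855 and 158.5 CPM with shRNA and to 53.9, 43.8 and 207 CPM in control. The part of these cell types and tissues in the results was not tested, and the counts of called genes in brain are given with and without shRNA library 1 and control library 3.

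Most initiation factors were well expressed in both systems. Of the 44 genes, 36 passed the filter on low counts in S2 cells and 35 in brain. Across all 12 libraries 37 did. The genes left out were second copies or members listed at very low counts. eIF3g2 had 0 counts in every library, and eIF3d2, a second gene for subunit d, had at most 2 counts in a library. The second gene for subunit f, eIF3f2, had at most 20. The minor eIF4E genes, eIF4E4, eIF4E5 and eIF4E7, had at most 14 counts in any library. eIF4B, the cofactor of the eIF4A helicase, was listed at 0 to 5 counts in every library, and none of its exons overlap those of another gene in the annotation. eIF5, which triggers GTP hydrolysis by eIF2 at the start codon, was listed at only 2.00 to 6.92 CPM. Of its 3203 exon bases 2588 lie on the same strand inside exons of CG46312, which had 0 counts in every library, so the level of eIF5 is uncertain.

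In S2 cells with Atx2 dsRNA 12 of the 13 tested eIF3 subunit genes fell. Of 36 initiation factors tested, 20 were lower, 4 were higher and 12 did not pass the threshold (edgeR, adjusted p under 0.05). Among all 9058 genes tested, 55.0% passed, 26.6% lower and 28.5% higher. The largest fall was that of eIF3c, and the largest rise that of eIF6. The median log2 fold change of the tested factors was -0.56, with the middle of the genes between -1.01 and 0.02, and the median of all genes was 0.04. The split into higher and lower changes with how libraries are scaled. Scaled only by library totals, 12 factors were higher and 14 lower with a median of -0.07, while the all-gene median shifted by 0.486 (log2). Of all 9058 genes 4906 were then higher and 1324 lower. Upper quartile scaling shifted the all-gene median by 0.184, with 7 factors higher and 17 lower. Of all genes 3406 were higher and 1870 lower with that scaling. Relative to the median of all genes, the factors stood at -0.599 with TMM, at -0.597 with upper quartile scaling and at -0.598 with library totals alone. The share of higher factors, 11.1%, was below that of all genes, and their count was 2 without S2 control library 2, and leaving out S2 control library 3 gave 1.

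**Figure D1:**
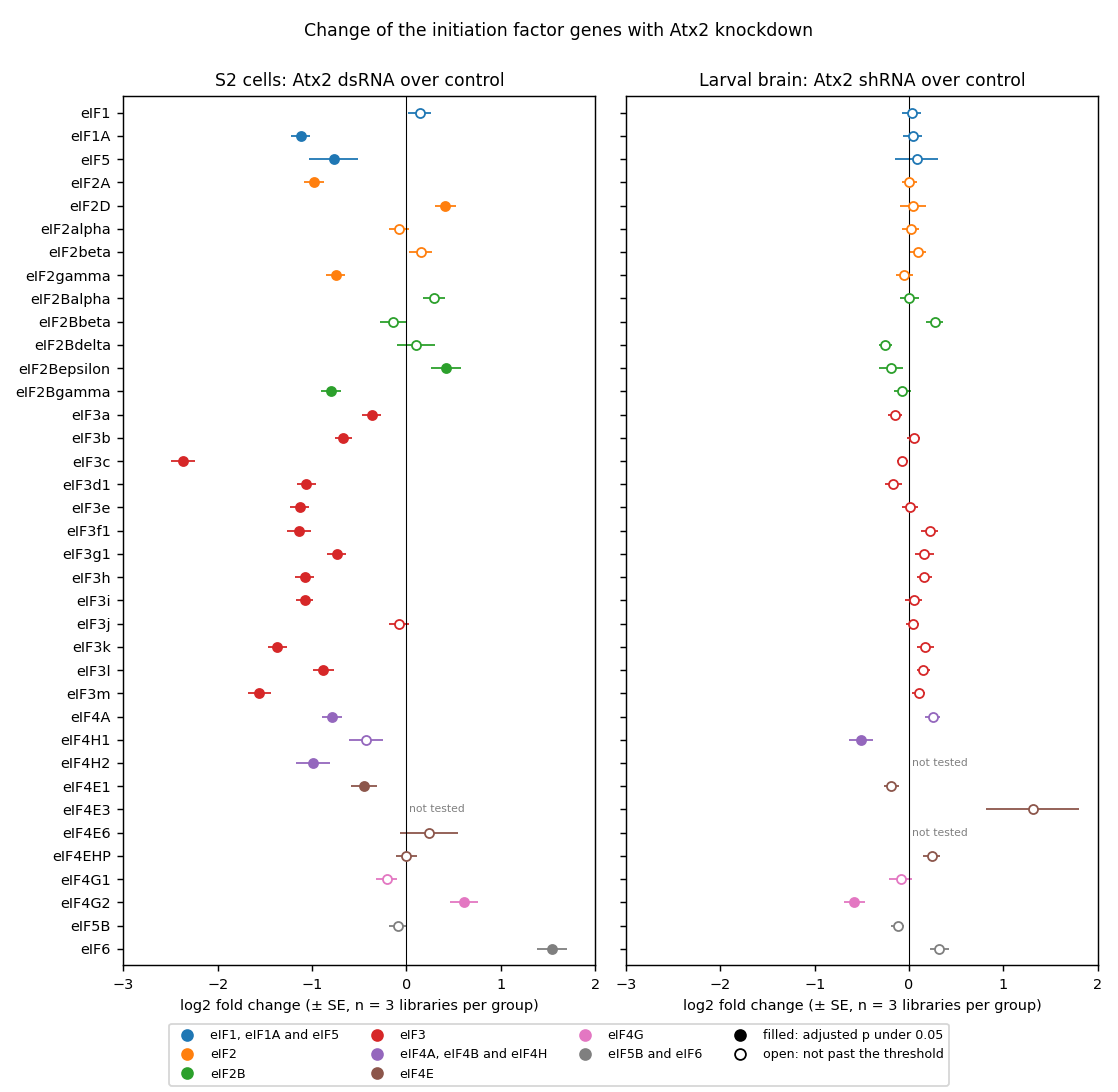
Log2 fold change with its standard error for the 37 initiation factor genes tested in S2 cells (left) or larval brain (right), knockdown over control, grouped by role and with calls filled. In S2 cells 12 eIF3 genes stand below 0 past the threshold and eIF6 stands highest at 1.54. In brain 2 genes, eIF4G2 and eIF4H1, are called. With library totals alone as the scaling 9 eIF3 genes were lower and 1 higher in S2 cells. Of all 9058 genes 1324 were then lower and 4906 higher.

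The eIF3 complex gave most of the decreases. Of its 13 tested subunit genes 12 were lower, 0 higher, and 1, eIF3j, did not pass. With library totals alone 9 of them were lower and 1 higher, where 1324 of all 9058 genes were lower and 4906 higher. The median of the 13 was -1.08 with TMM. eIF3c (FBgn0034258, chromosome 2R, 17665678 to 17669275, plus strand, BDGP6.54), a core subunit that contacts eIF1 and eIF5 in yeast, was at 334, 263 and 273 CPM with dsRNA and at 1570, 1442 and 1476 CPM in control. Each control library held more than any dsRNA library by a wide margin, and the log2 fold change was -2.37 ± 0.13 (SE, n = 3 per group, edgeR adjusted p = 1.18e-05). eIF3m (FBgn0033902, 2R, 14163066 to 14164825, minus strand) was at 332, 266 and 285 CPM with dsRNA and at 915, 813 and 878 CPM in control, a log2 fold change of -1.56 ± 0.12. eIF3k (FBgn0034654, 2R, 21685283 to 21686201, plus strand), which pairs with eIF3l at the edge of the complex, was at 211, 226 and 213 CPM with dsRNA and at 577, 541 and 563 CPM in control (-1.37 ± 0.10). For each of these genes the groups were far apart relative to the spread within them.

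Subunits of the core and of the scaffold were lower as well. eIF3f1 was at 333, 259 and 269 CPM with dsRNA and at 685, 585 and 630 CPM in control (log2 -1.14 ± 0.13). eIF3e was at 394, 412 and 436 CPM with dsRNA and at 925, 883 and 904 CPM in control (-1.13 ± 0.10). The scaffold protein gene eIF3b, the most abundant of the complex in CPM after eIF3c in control cells, was at 823, 887 and 864 CPM with dsRNA and at 1378, 1367 and 1350 CPM in control (-0.67 ± 0.09). None of these groups overlapped. The remaining subunits that fell were eIF3h and eIF3i (both -1.08), eIF3d1 (-1.06), eIF3l (-0.88), eIF3g1 (-0.74) and eIF3a (-0.37), the largest subunit. Leaving out dsRNA library 2 (adjusted p = 0.0539) or using upper quartile scaling (adjusted p = 0.131) ended the call of eIF3a. eIF3j, a loosely bound subunit that in yeast and human sits near the mRNA channel, was at 191, 171 and 168 CPM with dsRNA and at 192, 195 and 176 CPM in control. Its groups overlapped and its log2 fold change was -0.08 ± 0.11 (adjusted p = 0.523).

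The eIF3 subunits are joined in one complex, so their levels were also set against each other per exon length, as RPKM, which is CPM per kilobase of exon, on a scale shared by all 12 libraries. Here the RPKM of eIF3c divided by the median RPKM of the other 12 subunits was 0.426, 0.356 and 0.369 in the dsRNA libraries and 0.933, 0.890 and 0.881 in S2 control libraries. In brain this ratio was 0.997, 1.02 and 1.07 with shRNA and 1.20, 1.14 and 1.22 in control. The ratio was below the control libraries in every knockdown library of both systems, and the gap was much wider in S2 cells. Because eIF3c was singled out for its fall in S2 cells, its low ratio and rank there are not separate results. In brain eIF3c was not called (log2 -0.07 ± 0.06, edgeR adjusted p = 0.476), and eIF3d1 (-0.17) and eIF3a (-0.15) had lower values. Ranked by RPKM from the lowest of the 13 subunits, eIF3c stood 1st in S2 cells with dsRNA and 5th in S2 control cells, 8th in shRNA brains and 10th in control brains. The spread between subunits was wide in each group: the highest subunit exceeded the lowest 5.67 times in S2 cells with dsRNA (eIF3g1 over eIF3c) and 6.01 times in S2 control cells (eIF3g1 over eIF3j). In brain it was 4.51 times with shRNA and 4.49 times in control, in both cases eIF3i over eIF3j. Transcript levels per length do not give the amounts of the proteins.

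**Figure D2:**
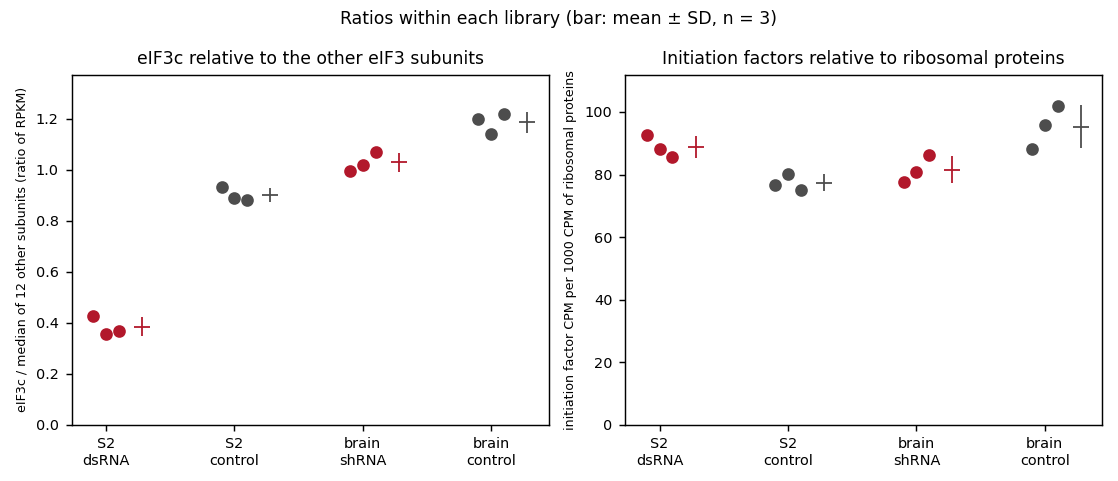
Left, RPKM of eIF3c over the median RPKM of the 12 other eIF3 subunits in each library. Right, summed CPM of the initiation factors per 1000 summed CPM of ribosomal protein genes. Points are libraries and bars are mean ± SD (n = 3 per group). The eIF3c ratio was 0.356 to 0.426 in S2 cells with dsRNA and 0.881 to 0.933 in S2 control cells, where eIF3c was singled out for its fall.

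Among the factors that act at the start codon, eIF1A, which helps the small subunit scan, was at 205, 207 and 228 CPM with dsRNA and at 475, 466 and 447 CPM in control. The groups did not overlap (log2 -1.12 ± 0.10, edgeR adjusted p = 8.57e-05). Its partner eIF1, which guards the choice of the start codon, was at 715, 652 and 549 CPM with dsRNA and at 586, 581 and 573 CPM in control, and the groups overlapped (0.14 ± 0.12, adjusted p = 0.352). eIF5 had a log2 fold change of -0.77 ± 0.26 (adjusted p = 0.0366), a call lost in 5 of the 6 fits that left out 1 library, with adjusted p from 0.0531 to 0.112 in those 5.

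The eIF2 genes split. eIF2gamma, the subunit that binds GTP and the initiator tRNA, was at 248, 274 and 267 CPM with dsRNA and at 414, 469 and 445 CPM in control (log2 -0.75 ± 0.10). It shares 352 exon bases with Su(var)3-9 on the same strand, which itself was higher with dsRNA (0.82 ± 0.13), so their counts may be mixed. eIF2alpha, whose phosphorylation slows initiation under stress, was at 275, 278 and 260 CPM with dsRNA and at 290, 309 and 263 CPM in control (-0.08 ± 0.11). eIF2beta was at 539, 513 and 425 CPM with dsRNA and at 452, 436 and 444 CPM in control (0.15 ± 0.12). The groups of eIF2alpha and of eIF2beta overlapped, and neither passed. eIF2A, a separate protein that can deliver initiator tRNA to some mRNAs, was at 400, 363 and 334 CPM with dsRNA and at 672, 722 and 763 CPM in control (-0.98 ± 0.11). eIF2D, which binds tRNA without GTP, was at 84.4, 76.1 and 70.7 CPM with dsRNA and at 62.5, 54.5 and 57.3 CPM in control (0.41 ± 0.11, adjusted p = 0.0150). Leaving out S2 control library 2 (adjusted p = 0.067) or 3 (adjusted p = 0.0828) ended the call of eIF2D.

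Subunits of eIF2B, the exchange factor of eIF2, did not share a direction. eIF2Bgamma was at 43.0, 40.9 and 44.8 CPM with dsRNA and at 80.5, 66.8 and 76.7 CPM in control (log2 -0.80 ± 0.11). eIF2Bepsilon, the catalytic subunit, was at 142.5, 104 and 102 CPM with dsRNA and at 89.5, 77.4 and 94.5 CPM in control (0.42 ± 0.16). Its adjusted p of 0.0499 was just under the threshold, and the call was lost in 8 alternatives, with an adjusted p of up to 0.173 without S2 control library 2. eIF2Bdelta was at 194, 138.5 and 126 CPM with dsRNA and at 171, 119 and 139.6 CPM in control, with overlapping groups (0.10 ± 0.20). eIF2Balpha (0.29 ± 0.12) and eIF2Bbeta (-0.14 ± 0.14) did not pass either.

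The helicase eIF4A, the factor with the highest CPM, was at 1822, 1980 and 2248 CPM with dsRNA and at 3237, 3565 and 3627 CPM in S2 control cells. The groups did not overlap (log2 -0.79 ± 0.11, edgeR adjusted p = 0.000634). eIF4H2, one of a pair of genes named for the helicase cofactor eIF4H, was at 14.9, 12.7 and 11.8 CPM with dsRNA and at 31.2, 21.3 and 25.4 CPM in control (-0.99 ± 0.18). The other, eIF4H1, had overlapping groups and did not pass (-0.43 ± 0.18, adjusted p = 0.0734). It was called lower in 4 alternatives, among them DESeq2 (-0.45, adjusted p = 0.044) and edgeR without dsRNA library 1 (-0.59, adjusted p = 0.0143). The main cap-binding gene eIF4E1 was at 312, 426 and 419 CPM with dsRNA and at 488, 547 and 543 CPM in control (-0.45 ± 0.14, adjusted p = 0.0274). Leaving out S2 control library 2 (adjusted p = 0.0641) or 3 (adjusted p = 0.0828) ended that call, as did upper quartile scaling (adjusted p = 0.156). eIF4EHP, which binds caps but not eIF4G and so represses translation, was at 82.5, 95.3 and 100.4 CPM with dsRNA and at 97.9, 92.4 and 88.1 CPM in control, with overlapping groups and a log2 fold change of -0.00 ± 0.11. It shares 447 exon bases with Syx1A on the same strand.

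The largest rises were those of eIF6 and of the scaffold gene eIF4G2. eIF6 (FBgn0034915, 2R, 23849246 to 23850301, minus strand, 1 exon) was at 192, 266 and 270 CPM with dsRNA and at 75.9, 92.2 and 82.4 CPM in control. Every dsRNA library stood above every control library (log2 1.54 ± 0.16, edgeR adjusted p = 0.000156). eIF5B, the GTPase that joins the subunits, was at 752, 675 and 661 CPM with dsRNA and at 748, 762 and 706 CPM in control, with overlapping groups (-0.09 ± 0.10). eIF4G2 (FBgn0260634, 3R, 23808285 to 23819237, minus strand), a second eIF4G gene with a known role in male germ cells of the fly, was at 262, 188 and 202 CPM with dsRNA and at 156, 143 and 129 CPM in control (0.61 ± 0.15, adjusted p = 0.0102). Leaving out S2 control library 3 ended the eIF4G2 call (0.51, adjusted p = 0.0572). The gene shares 779 exon bases with CG33111, which did not pass in S2 cells (-0.14 ± 0.17). The general scaffold eIF4G1 was at 779, 783 and 723 CPM with dsRNA and at 809, 991 and 847 CPM in control, a log2 fold change of -0.21 ± 0.11 that did not pass (adjusted p = 0.141) although the groups did not overlap.

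**Figure D3:**
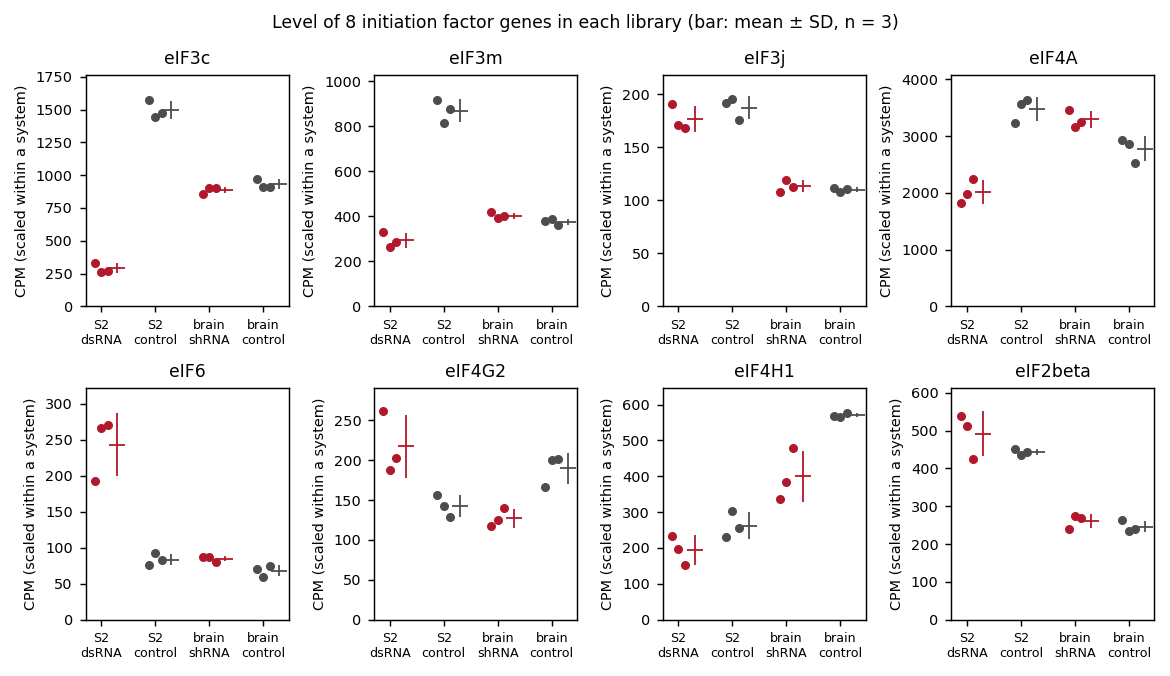
CPM of 8 initiation factor genes in each library (points) with mean ± SD beside them (n = 3 per group), scaled within S2 cells and within brain separately. In S2 cells eIF3c, eIF3m and eIF4A lie lower and eIF6 higher with dsRNA, and in brain eIF4G2 and eIF4H1 lie lower with shRNA; eIF3j and eIF2beta overlap in both systems.

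For 26 of the 36 factors no dsRNA library lay within the range of the control libraries; 21 lay below and 5 above control, against 63.8% of all genes tested without such overlap. The fall of eIF3 stood beside a fall of the genes for ribosomal proteins, which form the ribosome itself. Of 85 ribosomal protein genes tested 77 were lower, 4 higher and 4 not past, with a median of -0.93. The 4 higher genes, RpS10a, RpL37-2, RpS5b and RpS19b, were at low levels, with means of at most 16.25 CPM with dsRNA. With library totals alone 55 ribosomal protein genes were lower and 6 higher, where 1324 of all 9058 genes were lower and 4906 higher. Among ribosomal protein genes RpS29, a protein of the small subunit, fell most (log2 -3.91 ± 0.19). It was at 175, 231 and 291 CPM with dsRNA and at 3531, 3317 and 3628 CPM in control. Of the 23 tested factors outside eIF3, 8 were lower, 4 higher and 11 not past, with a median of -0.09. These shares, 34.8% lower and 17.4% higher, stand beside 26.6% and 28.5% of all genes. The summed CPM of the factors per 1000 CPM of ribosomal protein genes was 92.5, 88.3 and 85.7 with dsRNA and 76.8, 80.3 and 75.2 in control, so every dsRNA library had a higher ratio than any control library. The dsRNA libraries were shallower than the control libraries. With the libraries thinned to equal totals the counts of factors were again 4 higher and 20 lower. Of all 8571 genes then tested 2411 were higher and 2279 lower. The same dsRNA libraries had the lower hemocyte marker sums, and their part in the decreases was not tested.

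**Figure D4:**
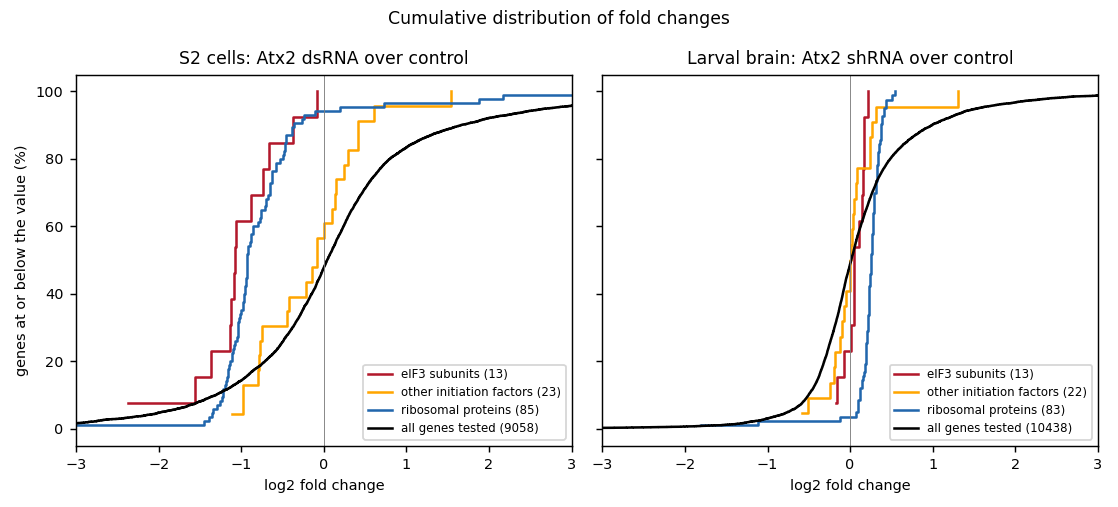
Share of genes at or below each log2 fold change, knockdown over control, in S2 cells (left) and brain (right), for eIF3 subunits, other initiation factors, ribosomal protein genes and all genes tested. In S2 cells the eIF3 and ribosomal protein curves lie to the left (medians -1.08 and -0.93), while the other factors and all genes lie further right (medians -0.09 and 0.04); with library totals alone the eIF3 and ribosomal protein medians were -0.59 and -0.44 and that of all genes 0.53.

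In brains with Atx2 shRNA few initiation factors passed the threshold, and the eIF3 genes did not. Of 35 tested, 2 were lower, 0 higher, and 33 did not pass, where 23.0% of all 10438 genes passed, 11.5% higher and 11.5% lower. The median was 0.04 against 0.01 for all genes. At an unadjusted p under 0.05, 6 factors were higher and 3 lower, where 2121 of all 10438 genes were higher and 1996 lower. DESeq2 called 3 factors higher and 3 lower, and of all genes 1706 higher and 1622 lower. The groups did not overlap for 16 of the 35, against 44.5% of all genes. Without both libraries that stand apart (shRNA 1 and control 3), a setting chosen after seeing the data, 0 factors passed, and the median of the 13 eIF3 genes was 0.07. The shRNA libraries also had lower neuroblast and higher glial marker sums, whose part in these values was not tested.

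The 2 factors called lower in brain were eIF4G2, a scaffold gene, and eIF4H1, a helicase cofactor gene. eIF4G2 was at 117, 124 and 139.5 CPM with shRNA and at 167, 200 and 202 CPM in control, so the gene that was higher with dsRNA in S2 cells was lower with shRNA in brain. The groups did not overlap (log2 -0.58 ± 0.11, edgeR adjusted p = 0.0156). The call was lost without shRNA library 2 (adjusted p = 0.0625), without control library 2 (adjusted p = 0.0801) and without the 2 libraries that stand apart (-0.48, adjusted p = 0.0731). eIF4H1 (FBgn0262734, X, 16448665 to 16454972, plus strand) was at 337, 384 and 477 CPM with shRNA and at 567, 567 and 577 CPM in control. Its control libraries were nearly equal and its shRNA libraries were spread, with no overlap (log2 -0.51 ± 0.13, adjusted p = 0.0334). That call was lost without any one of 5 of the 6 libraries, with adjusted p from 0.0567 without shRNA library 1 to 0.123 without control library 2, and without the 2 libraries that stand apart (adjusted p = 0.107).

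None of the 13 eIF3 genes passed in brain, and the median was 0.05. At an unadjusted p under 0.05 one of them, eIF3f1, lay higher, at 447, 401 and 375 CPM with shRNA and at 360, 356 and 332 CPM in control (log2 0.22 ± 0.09, edgeR adjusted p = 0.109), and DESeq2 called 0. eIF3c was at 859.7, 899.7 and 901.5 CPM with shRNA and at 974, 909 and 907 CPM in control, a log2 fold change of -0.07 ± 0.06 with groups that were close but did not overlap. eIF3m (0.10 ± 0.07) and eIF3k (0.17 ± 0.09) did not pass. Of the most abundant factors, eIF4A was at 3463, 3158 and 3253 CPM with shRNA and at 2936, 2867 and 2529 CPM in control (0.25 ± 0.08, adjusted p = 0.0726). DESeq2 called eIF4A higher (adjusted p = 0.0235). eIF6 was at 86.6, 87.3 and 80.6 CPM with shRNA and at 69.9, 59.4 and 75.1 CPM in control (0.32 ± 0.10, adjusted p = 0.0630), and DESeq2 called it too (adjusted p = 0.0243). eIF4E1 was at 489, 519 and 541 CPM with shRNA and at 613, 606 and 542 CPM in control, without overlap and without a call (-0.19 ± 0.08, adjusted p = 0.135).

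Among the start codon and eIF2 factors, eIF1A (0.04 ± 0.10), eIF1 (0.03 ± 0.10), eIF2A (-0.00 ± 0.08), eIF2alpha (0.02 ± 0.09) and eIF2beta (0.09 ± 0.09) had overlapping groups. The eIF2B subunits eIF2Bbeta, at 54.5, 58.5 and 50.04 CPM with shRNA and at 45.3, 42.6 and 47.7 CPM in control (0.27 ± 0.09, edgeR adjusted p = 0.0664), and eIF2Bdelta, at 45.4, 49.1 and 45.2 CPM with shRNA and at 58.1, 52.6 and 54.9 CPM in control (-0.25 ± 0.07, adjusted p = 0.0539), lay on opposite sides of 0 without passing, and DESeq2 called both (adjusted p = 0.0482 for eIF2Bbeta and 0.0386 for eIF2Bdelta). Across the 35 tested factors the log2 fold change in brain went down with exon length (Pearson r -0.50, Spearman rho -0.54 over genes, which are not independent replicates), where all genes tested had an r of -0.12 and a rho of -0.15. In S2 cells the same r was 0.00 over 36 factors. With the length trend of each library removed, 2 factors were higher and 2 lower in brain. At the lowest levels, eIF4E3 was at 0.384, 0.624 and 1.12 CPM with shRNA and at 0.239, 0.351 and 0.264 CPM in control (1.31 ± 0.49, adjusted p = 0.0962). The repressor eIF4EHP was at 94.2, 93.8 and 90.6 CPM with shRNA and at 70.7, 78.8 and 85.8 CPM in control (0.24 ± 0.09, adjusted p = 0.0864), without overlap and without a call.

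Of 83 ribosomal protein genes tested in brain 17 were higher, 2 lower and 64 not past, with a median of 0.25, where 11.5% of all genes were higher and 11.5% lower. The median was 0.14, with 12 higher, once the exon length trend was removed, and 0.15 without both libraries that stand apart. Their count of higher calls was not stable. Leaving out 1 control library gave 28 (library 1), 0 (library 2) or 4 (library 3). Of all genes 491 of 10721, 286 of 10780 and 837 of 10764 were then higher. Leaving out 1 shRNA library gave 3 (library 1), 1 (library 2) or 24 (library 3). Of all genes 717 of 10666, 434 of 10778 and 1322 of 10795 were then higher. Without both libraries that stand apart 1 was higher, against 711 of all 10483 genes. The median of the ribosomal protein genes was 0.18 to 0.34 over the fits that left out 1 library. DESeq2 called 45 higher, against 1706 of all 10438 genes. The 2 lower genes were RpS19b and RpS5b, low-level second copies of ribosomal protein genes. The summed CPM of initiation factors per 1000 CPM of ribosomal protein genes was 77.7, 80.8 and 86.2 with shRNA and 88.1, 95.9 and 102 in control, the opposite order to that in S2 cells. The brain ratio moved with the ribosomal protein sum, since the factors summed to 1.30 to 1.38% of all counts with shRNA and 1.28 to 1.34% in control, while the ribosomal protein genes took 16.1 to 16.8% with shRNA and 12.5 to 15.2% in control.

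The difference between the systems was tested as an interaction, the brain effect minus the S2 effect, in 1 fit of all 12 libraries. Of 37 factors tested 16 were positive, that is higher in brain relative to their change in S2 cells, and 2 were negative. Among all 11176 genes 41.1% passed, 19.7% positive and 21.4% negative. Of the eIF3 genes 11 of 13 were positive, and eIF3c (2.31 ± 0.15, edgeR adjusted p = 1.97e-06), eIF3m (1.67 ± 0.14) and eIF3k (1.55 ± 0.12) had the largest differences. eIF3a (0.22 ± 0.12) and eIF3j (0.13 ± 0.12) did not pass. Nor did eIF4H1, which was called lower in brain (interaction -0.08 ± 0.24, edgeR adjusted p = 0.815). The 2 negative factors were eIF6 (-1.21 ± 0.18, adjusted p = 0.000355) and eIF4G2 (-1.18 ± 0.21, adjusted p = 0.00103). Ribosomal protein genes were positive in 79 of 85 cases and negative in 2. With library totals alone (all-gene median shifted by -0.473) 13 factors were positive and 11 negative, and of the eIF3 genes 10 were positive and 1 negative. Of all 11176 genes 1292 were then positive and 4413 negative. Upper quartile scaling (shifted by -0.151) gave 16 positive and 5 negative factors, beside 1859 positive and 3039 negative of all genes. Without both brain libraries that stand apart 16 were positive and 2 negative. The cell types, the means of lowering Atx2 and the use of dsRNA differ between the systems and cannot be told apart here.

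Before any knockdown the factors were at lower levels in brain than in S2 cells, with control brain set over control S2 cells in the same fit of 12 libraries. Of 37 tested 31 were lower in brain, 2 higher and 4 not past, where 76.4% of all 11176 genes passed, 35.9% lower and 40.6% higher. The groups did not overlap for 33 of them, against 81.3% of all genes. The median of the factors was -0.86 and that of all genes 0.11. With library totals alone (all-gene median shifted by 0.375) 25 were lower and 6 higher. Without both brain libraries that stand apart 32 of 38 were lower and 2 higher. All 13 tested eIF3 genes were lower (12 with library totals alone), and so were 83 of 85 ribosomal protein genes, with a median of -1.01. This comparison uses the same S2 control libraries as the dsRNA comparison. CPM in this comparison are on the scale shared by all 12 libraries.

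The largest difference was that of eIF4H2, at 0, 0.0607 and 0.0312 CPM in control brains and at 33.8, 21.8 and 26.2 CPM in control S2 cells. It had 3 counts in all control brains and 1808 in control S2 cells, a ratio of 0.00115 with a 95% counting interval of 0.000237 to 0.00336. Its namesake eIF4H1 went the other way, at 540, 539 and 544 CPM in control brains and at 248, 310 and 263 CPM in control S2 cells (log2 0.98 ± 0.17, edgeR adjusted p = 0.000265). Brain thus had nearly all its counts of this pair on eIF4H1, and S2 cells had both.

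eIF3g1, which works in a module with eIF3b and eIF3i, was at 242.5, 216 and 199.6 CPM in control brains and at 995, 816 and 849 CPM in control S2 cells (log2 -2.01 ± 0.10). eIF3k was at 173, 162 and 153 CPM in control brains and at 623, 554 and 579 CPM in control S2 cells (-1.85 ± 0.08). eIF5B was at 209.8, 218 and 221.5 CPM in control brains and at 808, 781 and 726 CPM in control S2 cells (-1.83 ± 0.08). Each of these genes had no overlap between the groups. eIF2Bdelta was at 55.2, 50.1 and 51.8 CPM in control brains and at 185, 122 and 144 CPM in control S2 cells (-1.52 ± 0.18). eIF4E1 had overlapping groups and did not pass, at 583, 577 and 511 CPM in control brains and at 528, 560 and 559 CPM in control S2 cells (0.02 ± 0.11). At very low levels, eIF4E3 had 26 counts in control brains and 2 in control S2 cells, a ratio of 9 with a counting interval of 2.25 to 78.3, and eIF4E6 had 10 in control brains and 68 in control S2 cells, a ratio of 0.102 (0.0467 to 0.199).

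Per exon length eIF4A was the highest factor in both systems, at a mean of 1062 ± 88.6 RPKM in control brains and 1463 ± 48.3 RPKM in control S2 cells (SD, n = 3). eIF1 came next in brain with 399 ± 14.1 RPKM and had 890.0 ± 35.1 RPKM in S2 cells. In control brains 12 eIF3 subunits lay between 160.0 and 344 RPKM, all above eIF2alpha and eIF2gamma, and eIF3j lay below them at 76.7 ± 1.36 RPKM. The 5 eIF2B genes were far lower, at 19.6 to 31.6 RPKM in control brains. eIF4G2 (19.8 ± 2.00 RPKM in control brains) lay below eIF4G1 (96.7 ± 5.14 RPKM). eIF2D, at 17.2 ± 2.37 RPKM in control brains, and eIF2Bepsilon, at 19.6 ± 3.06 RPKM, did not differ beyond their spread.

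**Figure D5:**
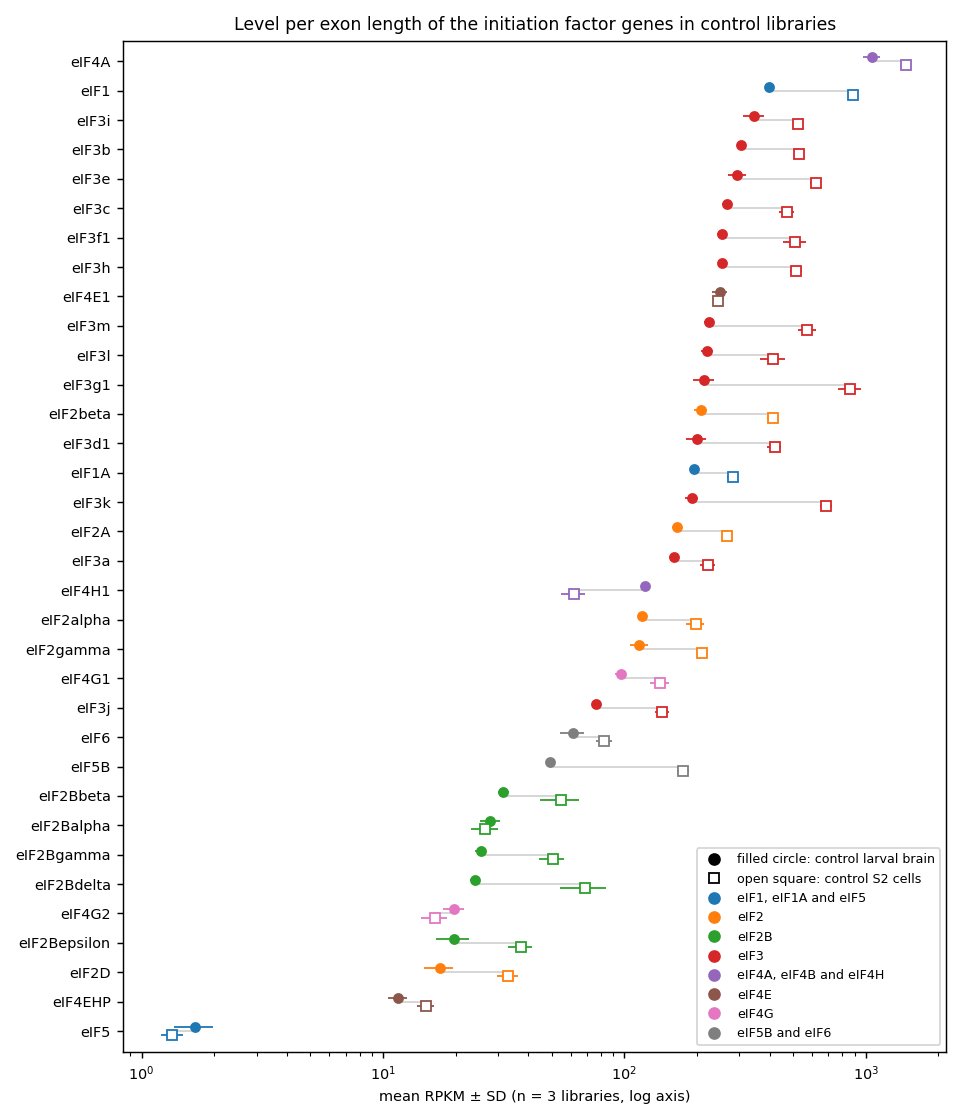
Mean RPKM ± SD (n = 3 libraries, log axis) of the 34 initiation factor genes with at least 1 RPKM in both control groups, in control larval brain (filled circles) and control S2 cells (open squares), ordered by the brain level and coloured by role. Most squares lie to the right of their circles, and eIF4H1 lies the other way. The other 10 of the 44 genes are not drawn.

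Other translation genes were read from lists chosen by function. Of 18 tested regulators of initiation, 9 were lower and 2 higher in S2 cells with dsRNA, where 26.6% of all genes were lower and 28.5% higher. With library totals alone 7 were lower and 8 higher, where 1324 of all 9058 genes were lower and 4906 higher. The lower ones were led by larp, at 255, 179.6 and 165 CPM with dsRNA and at 1669, 1121 and 1383 CPM in control, which binds mRNAs of the translation machinery, by Paip2 (-2.09 ± 0.17), which restrains the poly(A)-binding protein, and by Thor (-2.07 ± 0.49), the 4E-BP that blocks eIF4E. Thor was at 706, 323 and 152 CPM with dsRNA and at 1916, 1323 and 1739 CPM in control. The higher ones were DENR (0.76 ± 0.19), which with MCTS1 helps reinitiation, and 4E-T (0.68 ± 0.10), an eIF4E-binding protein of RNA granules. In brain 0 of the 18 regulators were higher and 3 lower, where 11.5% of all genes were called each way. These were Fmr1 (-0.62 ± 0.09), the fragile X protein, NAT1 (-0.58 ± 0.07), a relative of eIF4G that lacks cap binding, and MCTS1 (-0.30 ± 0.08). Leaving out 1 library gave 1 (control 2) to 4 (shRNA 3) lower regulators, and without both libraries that stand apart MCTS1 did not pass (adjusted p = 0.102). NAT1 was at 564, 644 and 616 CPM with shRNA and at 927, 899 and 904 CPM in control, without overlap.

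Of 13 elongation, termination and recycling factors, 7 were lower and 3 higher in S2 cells with dsRNA, against the same 26.6% and 28.5% of all genes. Scaled by library totals alone, 6 were lower and 5 higher, where 1324 of all 9058 genes were lower and 4906 higher. eEF1alpha1, which brings tRNAs to the ribosome (-1.54 ± 0.07), pix, the recycling factor ABCE1 (-1.31 ± 0.12), and eEF5, the fly eIF5A (-1.20 ± 0.09), led the lower ones. HBS1 (1.68 ± 0.11), which rescues stalled ribosomes, eEFSec (1.20 ± 0.18) and the release factor eRF3 (0.47 ± 0.12) were higher. In brain 3 were higher, eEF1alpha1 (0.34 ± 0.07), eEF1beta (0.32 ± 0.08) and eEF2 (0.22 ± 0.06), and 1, eRF3, was lower (-0.36 ± 0.09), where 11.5% of all genes were called each way. Without both libraries that stand apart 0 of the 13 passed, and the 3 higher calls were 0 without shRNA 1, shRNA 2 or control 2. Of 9 mitochondrial translation factors 2 were higher and 1 lower in S2 cells and 1, mEFTu1 (0.38 ± 0.09), was higher in brain, shares at or below those of all genes. Scaled by library totals alone, 6 were higher and 0 lower in S2 cells, where 4906 of all 9058 genes were higher and 1324 lower. The mEFTu1 call was kept without both libraries that stand apart (adjusted p = 0.0438) but lost without shRNA 1, shRNA 2, control 1 or control 2. Of 4 genes for partners of Ataxin-2 in translation, which include pAbp of the regulator list, 2 were lower in S2 cells and 1, me31B (-0.39 ± 0.11), was lower in brain. Of all genes 26.6% were lower in S2 cells and 11.5% in brain, and 4 genes are too few to tell this list from all genes. The me31B call did not hold without both libraries that stand apart (-0.30, adjusted p = 0.111), and of the fits that left out 1 library it held only without shRNA 3. With library totals alone 1 partner was lower and 1 higher in S2 cells, where 1324 of all 9058 genes were lower and 4906 higher.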

How the data were processed

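The authors deposited raw read counts per gene for each of the 12 libraries, as whole numbers with no normalization. Per the submitters' processing notes cutadapt 1.13, STAR, HTSeq 0.6.1p1 and DESeq2 were used with build BDGP6, with no role given there. Which strand setting, gene annotation release or filters went into the counts is not given in the sources used here. Identifiers were matched to the BDGP6.54 annotation (17599 matched, 138 did not; the unmatched held 0.995 to 1.39% of counts), which gave symbols, positions and exon lengths. Some factors share exon bases with neighbours, and their counts are uncertain.

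Counts were filtered with filterByExpr (minimum count 10), TMM scaled and fitted in edgeR 4.0.16 (R 4.3.3), whose quasi-likelihood F test gave each p, with Benjamini-Hochberg adjustment over all genes and a threshold of 0.05. S2 cells and brain were fitted apart; the interaction and the contrast of controls came from 1 fit of all 12 libraries, whose scaling also gave RPKM. SE is the fold change over the root of F. Intervals of count ratios are exact at 95% and cover counting error only. Code was tested on simulated data. Replicate pairs differed by more than sampling noise.

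Alternatives were other scalings, filters, DESeq2 1.42.0, a replicate block, libraries thinned to equal totals, an exon length correction (lowess, span 0.3) and leaving out each library. Values per library were given for the called genes of largest change, and for the 2 to 4 genes of highest level in each role. Members and lists were chosen with earlier results of these data known.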

Additional observations from a re-analysis of the deposited data

Results flagged for a closer look

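The effect in brain minus the effect in S2 cells (log2) differed from 0 for 18 initiation factors by the interaction test of edgeR at an adjusted p under 0.05. Where several genes are named here, the value is this difference. In the eIF3 complex it was 2.31 for eIF3c, 1.67 for eIF3m, 1.55 for eIF3k, 1.37 for eIF3f1, 1.25 for eIF3h, 1.15 for eIF3e, 1.13 for eIF3i, 1.04 for eIF3l, 0.91 for both eIF3d1 and eIF3g1, and 0.73 for eIF3b. Outside eIF3 it was 1.16 for eIF1A, 1.04 for eIF4A, 0.98 for eIF2A, 0.74 for eIF2Bgamma and 0.71 for eIF2gamma. It was negative for eIF6 (-1.21) and eIF4G2 (-1.18). The eIF4G2 gene was called in both systems with opposite signs, and each of its calls was lost when some single libraries were left out. With library totals alone the calls of eIF3b (0.25, adjusted p = 0.0706), eIF2Bgamma (0.25, adjusted p = 0.152) and eIF2gamma (0.23, adjusted p = 0.159) were lost. The value of eIF2gamma carries the limit of its shared exon bases.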

How the results depend on the processing

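Of the called factors, 15 of 24 in S2 cells, 0 of 2 in brain, 15 of 18 in the interaction and 26 of 33 between controls kept their call in every alternative run. Library totals alone shift all S2 values up together, so small negative ones change sign by construction. This happened to 9 of 36 factors in S2 cells. Among those called with either scaling were eIF2alpha (0.40), eIF3a (0.12), eIF3j (0.40), eIF4E1 (0.04), eIF4EHP (0.49) and eIF5B (0.40), while eIF2Bbeta (0.35), eIF4G1 (0.27) and eIF4H1 (0.06) were called with neither. In the interaction 7 of 37 changed sign, of which eIF2alpha (-0.38) and eIF3j (-0.35) were called with that scaling. That scaling gave 12 higher factors in S2 cells with a median of -0.07, 11 negative in the interaction and 6 higher in control brain. Upper quartile scaling gave 7 higher in S2 cells with a median of -0.37, 2 higher in brain and 5 negative in the interaction. In brain the count of higher factors was 2 with a stricter filter, 3 with DESeq2 and 2 with the exon length trend removed, which also turned eIF4G2 between controls to -0.59. Between controls 1 factor was higher with the stricter filter and 1 with libraries thinned to equal totals. Without both libraries that stand apart, 0 factors were lower in brain and 1231 of all genes were called, against 2397 with all libraries.

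Leaving out 1 library at a time gave 1 to 5 higher and 18 to 20 lower factors in S2 cells, with a median of -0.62 to -0.45, and 3877 to 5466 genes called. In brain it gave 0 to 1 higher and 0 to 2 lower, a median of 0.01 to 0.08, and 494 genes called without control 2 to 2364 without shRNA 3. It gave 16 to 17 positive and 2 to 3 negative factors in the interaction, and 1 to 2 higher and 31 to 32 lower between controls. The causes of these changes were not tested. The labels do not say whether replicate numbers pair the samples. In brain same-numbered deviations correlated at 0.103, 0.249 and -0.468, and in S2 cells at 0.381, 0.299 and -0.000965. These are deviations from means of 3 libraries, and 2 brain libraries stand apart. The correlations do not settle in either system whether the numbers pair the samples. With a replicate block 0 factors were lower in brain, so eIF4G2 (adjusted p = 0.0541) and eIF4H1 (adjusted p = 0.076) did not pass, 0 ribosomal protein genes were higher and 40 of all genes were called, while S2 cells had 4 higher and 21 lower factors. Counts of eIF4E3 and eIF4E6 were at most 32 in any library, which limits the precision of their values.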
